A study of Caenorhabditis elegans with 2 samples.

Results

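The genes elt-1, elt-3, elt-6 and egl-18 encode the GATA-type zinc finger transcription factors of Caenorhabditis elegans that act outside the endoderm, 4 of the 19985 protein-coding genes of the Ensembl annotation. They were examined in peak lists for ELT-2, the GATA factor of the intestine, in late embryos. Some of these lists also hold entries described as background. Each gene was given a window from 10 kb upstream of its outermost 5′ end to its 3′ end, and every peak whose summit lay in that window was taken with its position, signal and rank. Chromatin immunoprecipitation with sequencing (ChIP-seq) had been done on the strain OP56, with the genotype unc-119(ed3) III; wgIs56. This line stably expresses ELT-2 with GFP and FLAG at its C-terminus, and the fusion was pulled down with an antibody to GFP. There was 1 group, of hermaphrodite late embryos taken whole 4 hours after bleaching of eggs, with biological replicates 1 and 2. The labels call the replicates biological and say nothing more of separate cultures. For the transgene, the labels give neither promoter nor copy number. No control library was analysed here, so no groups were compared and no p-value is given.

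GATA factors bind short DNA sites with the core GATA through their zinc fingers, so members of the family can recognise near-identical letters. In the worm, the family is divided by lineage: MED-1, MED-2, END-1, END-3, ELT-7 and ELT-2 act in turn in the endoderm that forms the intestine. ELT-1 specifies the embryonic epidermis, ELT-3 acts after it in differentiating epidermal cells, and ELT-6 and EGL-18 act in the seam cells, the lateral stem-like cells of the epidermis. The lists hold no expression values, so the lineage of these genes could not be checked in them. Whole embryos were used, so strong binding in few cells and weak binding in many cells cannot be told apart.

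The thresholded list held the 4098 entries that passed the reproducibility procedure, and these were the 4098 of highest signal among the 30000 entries of the pooled list. The replicate lists held 25770 and 25986 entries. The median signal was 108 in the thresholded list (lowest 67.6, highest 1740) and 26.5 in the pooled list (lowest 16.1). The signal is the authors' value for each peak, its scale is not given in the sources used here, and rank 1 is the highest signal of a list. Read numbers per library are not known from the lists, so depth is unknown and a missing entry says only that the list has none there.

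Of the 4 genes, elt-3 and egl-18 each had 1 thresholded summit in the window, and elt-1 and elt-6 had none. Among all protein-coding genes, 39.9% had a thresholded summit in a window of the same rule, and a count of 2 of 4 is near that share. The windows of the 4 genes were longer than those of 75.3% (elt-6) to 98.1% (egl-18) of genes. The share among genes with windows of like length is not given here. Both summits lay in a long intron, 2673 bp past the outermost 5′ end at elt-3 and 2111 bp at egl-18. In the pooled list, which also holds entries described as background, all 4 genes had entries, beside 78.4% of protein-coding genes. The windows held 3 pooled summits at elt-1, 3 at elt-3, 7 at elt-6 and 16 at egl-18. These were 24 distinct summits, because elt-6 begins 136 bp past the 3′ end of egl-18 on the same strand, their windows overlap by 9864 bp and 5 summits lay in both.

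**Figure D1:**
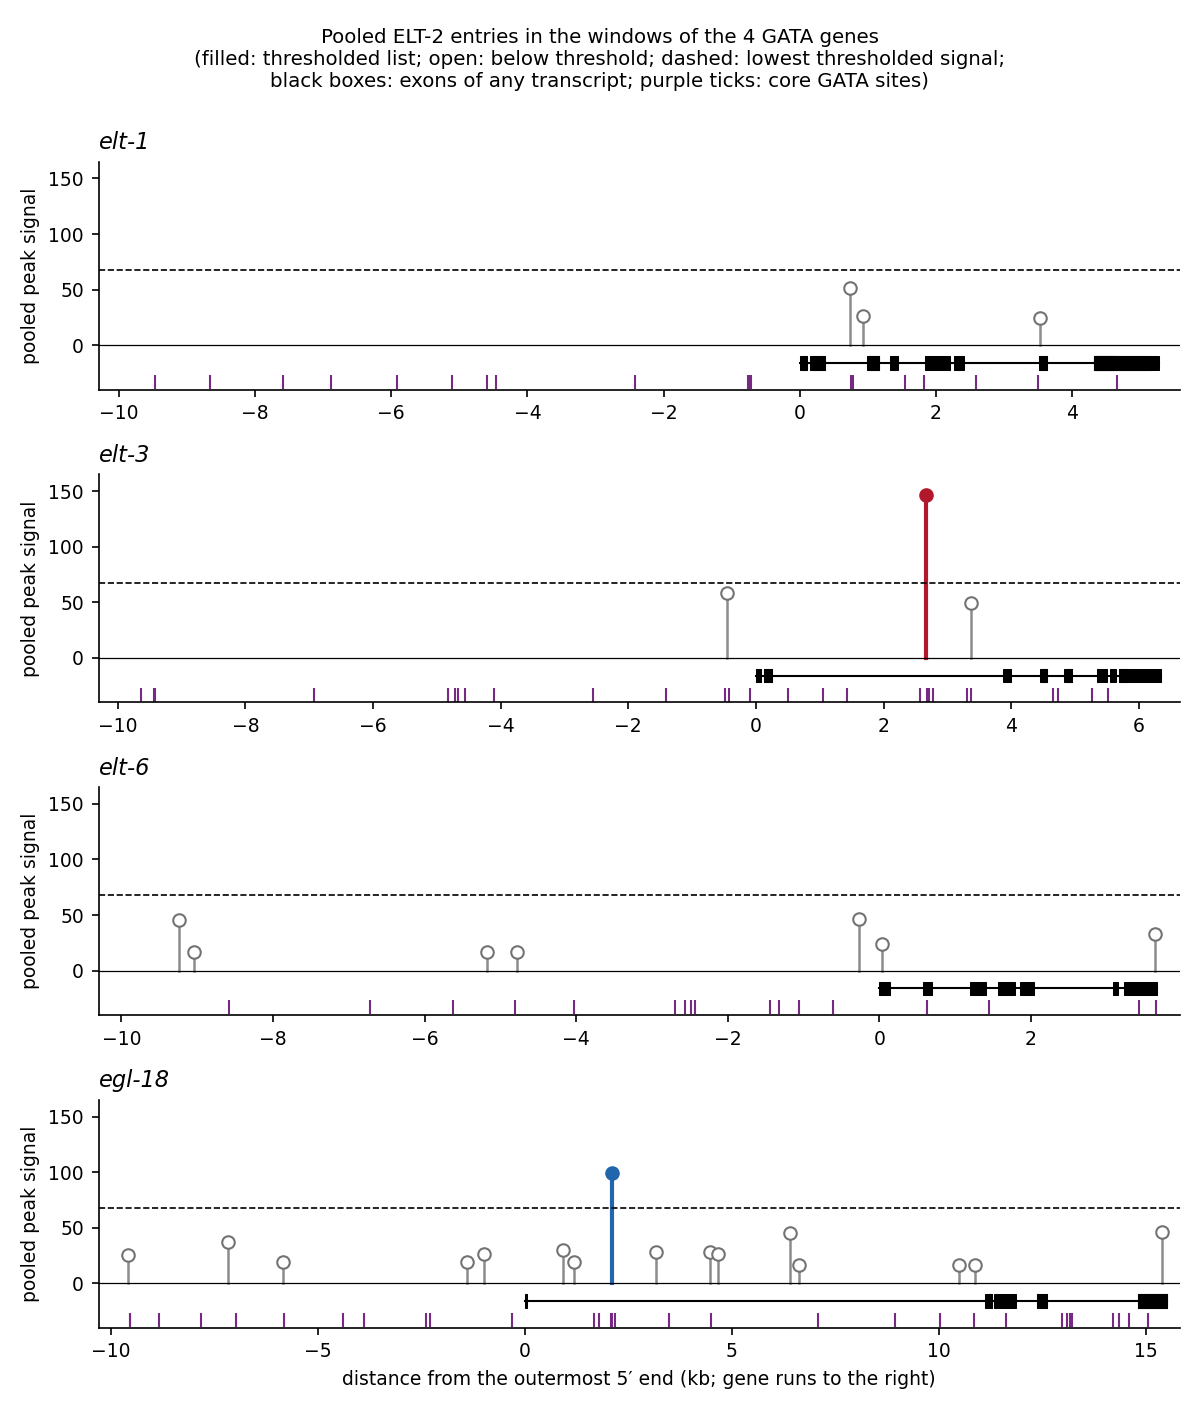
Pooled ELT-2 entries in the windows of elt-1, elt-3, elt-6 and egl-18 by distance from the outermost 5′ end (kb, gene running to the right) and signal (vertical axis, no unit given). Filled points are thresholded entries, open points are pooled entries below the threshold, the dashed line is the lowest thresholded signal (67.6), black boxes are exons and purple ticks are core GATA sites. Only elt-3 (146.8) and egl-18 (99.6) have a point above the line, and elt-1 has no point upstream of its 5′ end.

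The sequences below are the 101 bp about the summits on which the results turn, read from the plus strand of WBcel235, which is ce11, 5′ to 3′. All 4 genes lie on that strand. Capitals mark GATAA or its reverse complement TTATC. The first pair are the thresholded summits, which show how the letters sit about the called position: elt-3 at chrX:13937497-13937597 and egl-18 at chrIV:1904383-1904483.
elt-3 thresholded intron summit: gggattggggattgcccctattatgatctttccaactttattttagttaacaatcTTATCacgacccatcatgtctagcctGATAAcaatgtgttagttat
egl-18 thresholded intron summit: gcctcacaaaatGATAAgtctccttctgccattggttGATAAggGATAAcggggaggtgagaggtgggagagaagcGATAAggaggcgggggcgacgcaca
The next are the strongest entry of elt-1, at chrIV:9615680-9615780, and the weaker entries of elt-3, at chrX:13934374-13934474 and chrX:13938193-13938293, all of which hold the same letters below the threshold. The last, at chrIV:1908682-1908782 in the egl-18 intron that the elt-6 window also covers, is shown because it holds none.
elt-1 strongest pooled summit: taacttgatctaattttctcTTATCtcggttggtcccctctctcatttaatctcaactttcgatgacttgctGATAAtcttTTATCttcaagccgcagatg
elt-3 upstream pooled summit: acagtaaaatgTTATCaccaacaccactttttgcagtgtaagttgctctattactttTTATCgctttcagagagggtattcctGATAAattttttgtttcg
elt-3 second intron summit: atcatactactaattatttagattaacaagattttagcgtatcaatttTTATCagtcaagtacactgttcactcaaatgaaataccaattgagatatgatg
egl-18 and elt-6 shared summit: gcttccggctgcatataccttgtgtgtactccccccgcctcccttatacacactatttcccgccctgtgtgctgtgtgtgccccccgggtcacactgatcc

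Sites were counted as TGATAA on either strand within 50 bp of a summit, each of which also contains GATAA. Both thresholded summits of these genes had such a site, as did 43.7% of the 4076 nuclear thresholded summits. Of the 24 distinct pooled summits, 11 had TGATAA, beside 17% of all nuclear pooled summits. Below the threshold, 9 of 22 had TGATAA and 11 had GATAA, beside 12.8% and 25.1% of all nuclear pooled summits below it. Above the threshold, 56.7% of nuclear summits had GATAA. A match is a description of letters, and whether ELT-2 touched those bases was not measured.

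ELT-3, the epidermal differentiation factor, had the strongest entry of the 4 genes. The gene elt-3 (WBGene00001251) lies on chromosome X at 13934874 to 13941216 in ce11 and has 6 annotated transcripts, the shorter of which begin 3869 bp inside the longest. Its thresholded peak spanned 13937319 to 13937774 with the summit at 13937547, which is 2673 bp past the outermost 5′ end. This is intron 2 of transcripts K02B9.4a.2 and K02B9.4b.1 and intron 1 of K02B9.4a.3, and it is 1196 bp upstream of the 5′ end of the shorter transcript K02B9.4a.1. The peak had a signal of 146.8 and rank 1183 of the 4098, within the top 28.9% of the list, and a −log10 q-value of 3.58. In replicate 1 the matching entry had a signal of 60.0 and rank 2015, and in replicate 2 a signal of 86.2 and rank 788. The entry was thus present in both replicates and higher in replicate 2, and the summits of the replicates were 11 bp apart. The log2 ratio of replicate 2 to replicate 1 was 0.52, above that of 93.1% of thresholded peaks, whose median was −0.20 with an SD of 0.53. The ratio at this peak was thus toward the upper end of its spread over thresholded peaks.

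The elt-3 peak was dense in core sites. It held 5 TGATAA within its 456 bp, and 64 of the 4076 nuclear thresholded peaks, or 1.57%, held 5 or more. The median nuclear thresholded peak held 1, and 35.2% held none. Within 50 bp of the summit there were 2, centred 7.5 bp and 32.5 bp downstream of it on opposite strands, and 19.5% of summits had as many. An annotated non-coding RNA gene, K02B9.8, ends 288 bp from the summit within the same intron.

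**Figure D2:**
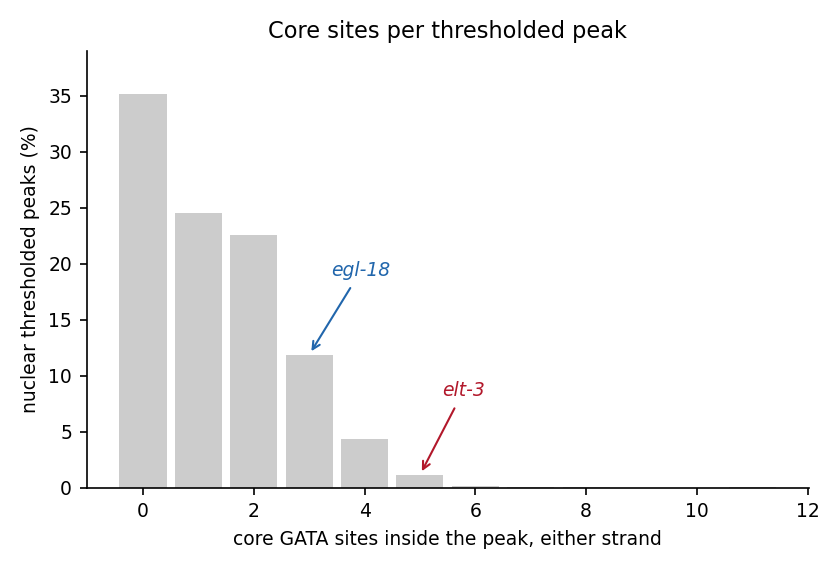
Number of TGATAA sites on either strand inside each nuclear thresholded peak (horizontal axis, sites per peak) and the percent of the 4076 peaks with that number (vertical axis). The elt-3 peak, with 5 sites, lies in the thin right tail, and the egl-18 peak, with 3, lies among the 17.8% of peaks with 3 or more.

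The other entries of elt-3 flanked this peak. One lay 450 bp upstream of the gene in intergenic DNA, with a pooled signal of 58.0 at rank 4967, and replicate signals of 23.8 and 31.5. The second lay 3369 bp past the 5′ end, 500 bp upstream of K02B9.4a.1 in the same intron, with a pooled signal of 49.5 at rank 6041, and replicate signals of 28.6 and 19.0. Replicate 2 was the higher at the first and replicate 1 at the second, so the replicates did not order the flanking entries alike. Both had TGATAA near the summit, 2 at the upstream entry and 1 centred 0.5 bp from the summit at the intronic one. All 3 elt-3 summits had an entry in each replicate list and a TGATAA within 50 bp of the pooled summit. Of the 28 TGATAA in the elt-3 window, 9 lay under a pooled peak, all 9 of them under peaks of both replicates, and 19 lay under none. Over the nuclear genome, 17.1% of TGATAA lay under a pooled peak and 9.57% under peaks of both replicates.

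EGL-18, a seam cell factor that is also needed for the vulva and egg laying, had the other thresholded peak. The gene egl-18 (WBGene00001186) lies on chromosome IV at 1902322 to 1917840, and its longest transcript, F55A8.1a.2, starts 11124 bp before the short ones. Its peak spanned 1904205 to 1904660 with the summit at 1904433, 2111 bp into intron 1 of F55A8.1a.2, counted from the 5′ end. The pooled signal was 99.6, at rank 2340 of 4098 (57.1% down the list), with a −log10 q-value of 2.97. The matching entry had a signal of 43.5 at rank 3395 in replicate 1 and 48.8 at rank 2333 in replicate 2. The log2 ratio of replicate 2 to replicate 1 was 0.16, above that of 79.9% of thresholded peaks. The replicate summits were 35 bp apart, beside a median of 26 bp over thresholded peaks, of which 59.55% had a smaller offset. The peak held 3 TGATAA, and its 101 bp about the summit held 4 GATAA, all on the plus strand, of which 2 were TGATAA. GC content of those bases was 54.5%, as high as at only 8.19% of thresholded summits, whose median was 40.6%. At elt-3 the value was 36.6%.

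The remaining 15 pooled summits of the egl-18 window were weak. They had signals of 16.3 to 46.2, and none ranked better than 6570. In the intergenic part, 5 lay between 991 and 9587 bp upstream of the 5′ end, the strongest with a signal of 37.3 at 7173 bp. The rest lay in intron 1 of F55A8.1a.2, except 1 in the 3′ UTR. The strongest of the intron, at 1908732, had a pooled signal of 45.7, with 35.6 in replicate 1 and 12.8 in replicate 2, and no GATAA within 50 bp. Its log2 ratio was −1.48. The replicate summits lay 112 bp apart, and 2 entries of replicate 1 overlapped the pooled one. The ratio may therefore set different summits against each other. Pooled entries between the threshold and rank 7000, matched in both replicates, had a median ratio of −0.22 with an SD of 0.78. Of these, 5.45% had a lower ratio, and the rank limit was chosen after the values were seen.

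ELT-6, the partner of EGL-18 in the seam, had no thresholded summit, and the strongest entry of its window was found in replicate 1 only. The gene elt-6 (WBGene00001253) lies on chromosome IV at 1917977 to 1921643 and has 1 annotated transcript. The entry nearest upstream, at 1917706, lay 271 bp before the 5′ end and inside the 3′ UTR of egl-18. It had a pooled signal of 46.2 at rank 6570 and no GATAA within 50 bp of the summit. Replicate 1 had 34.2 at rank 4834, and replicate 2 had no entry. Of the 2902 pooled entries between the threshold and rank 7000, 58 (2.00%) were matched in replicate 1 only. This entry lay toward the weaker end of that range, whose limit was chosen after the values were seen. Over all 25902 pooled entries below the threshold, 6093 were matched in replicate 1 only. In the gene itself, the entry at 1918010 in coding exon 1 had a pooled signal of 23.6 and no GATAA within 50 bp. The one at 1921620 in the 3′ UTR had 33.1 and a TGATAA. The first was matched in replicate 1 with a signal of 24.2, and in replicate 2 with 17.5 at a summit 389 bp from the pooled one. The second was matched in replicate 1 only, with a signal of 25.9.

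The replicates differed over the elt-6 window as a whole. Replicate 1 had 10 entries there and replicate 2 had 2, although the lists are of almost equal length. The median signal of the 10 was 19.2, beside 18.4 over the replicate 1 list. The same counts for the windows of other genes are not given here, so how unusual this difference is was not tested. In the egl-18 window the counts were 17 and 9, but 8 and 1 of these lie in the overlap with the elt-6 window and are the same entries. In the part of the egl-18 window outside the overlap, replicate 1 had 9 and replicate 2 had 8. The window of elt-3 had 3 in each replicate, and that of elt-1 had 2 and 1. The elt-6 and egl-18 windows were also the richest in GC, at 42.4% and 40.0%, beside 35.8% at elt-1, 36.3% at elt-3 and 35.4% over the nuclear genome, and the part of base composition in these counts was not tested. The nearest thresholded summits to elt-6 were the one in egl-18, 13544 bp upstream, and one 35247 bp downstream of its 5′ end.

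ELT-1, the factor that specifies the epidermis, had no thresholded summit. The gene elt-1 (WBGene00001249) lies on chromosome IV at 9614995 to 9620280 and has 6 transcripts, of which W09C2.1f.1 begins 995 bp inside the longest. Its strongest entry, at 9615730, lay in an intron 735 bp past the outermost 5′ end and 260 bp upstream of W09C2.1f.1. The pooled signal was 51.8 at rank 5720. Replicate 2 had 35.7 at rank 3771, within its 4098 strongest entries, and replicate 1 had 18.7 at rank 12530, with its summit 151 bp from the pooled one. The log2 ratio of these entries was 0.93, but their summits lay 145 bp apart, and the replicate 1 summit lay nearer, at 48 bp, to a second pooled summit. The ratio may therefore set different summits against each other. The strongest summit had 1 TGATAA and 3 GATAA within 50 bp. The second pooled entry, at 9615929 with a signal of 26.7, overlapped the same replicate entries. The third, at 9618521 in a coding exon, had a signal of 24.7, a TGATAA, and an entry in replicate 1 only, with a signal of 20.8.

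No list had an entry in the 10 kb upstream of the elt-1 5′ end. The nearest thresholded summits lay 21341 bp upstream and 36420 bp downstream of that end, the second in the 5′ UTR of chca-1. Of the 19 TGATAA in the elt-1 window, 3 lay under a pooled peak and 16 under none. Over the nuclear genome, 17.1% of TGATAA lay under a pooled peak, so the count at elt-1 is near that share.

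**Figure D3:**
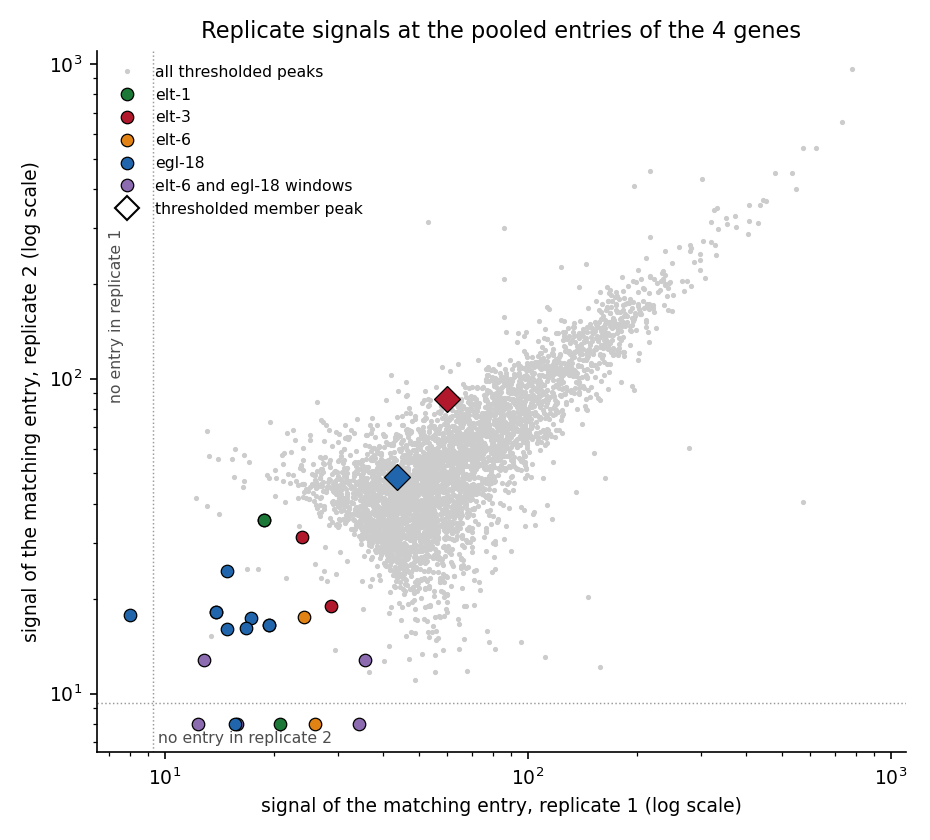
Signal in replicate 1 (horizontal axis) and replicate 2 (vertical axis) of the entries matching the 24 distinct pooled summits of the 4 genes, on log scales with no unit given; small grey points are all thresholded peaks found in both replicates. Points beyond the dotted lines have no entry in the replicate named there and are drawn at a fixed place, and pooled summits that share replicate entries fall on the same point. The diamonds of elt-3 (60.0 and 86.2) and egl-18 (43.5 and 48.8) lie in the grey cloud, and the other points lie at its lower left edge or beyond it.

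Of the 24 distinct pooled summits, 17 had an overlapping entry in both replicates, 6 in replicate 1 only and 1 in replicate 2 only. Over the whole pooled list, 54% of entries were matched in both by the same rule, an overlap of at least 1 bp. The count depends on that rule, and stricter rules were applied to all 24 after the values were seen. With summits within 100 bp, 7 of the 24 were matched in both, beside 31.2% of the pooled list, and with a reciprocal overlap of 50%, 11 were, beside 44%. With the overlap of 1 bp, the share was 99.8% for thresholded entries, where agreement of the replicates had already entered the choice, and 46.8% for the others. Some of the 17 shared the same replicate entries, which left 14 distinct pairs of entries. The signal was higher in replicate 2 in 8 of these pairs and in replicate 1 in 6.

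At the 5′ ends themselves, from 1000 bp upstream to 200 bp downstream of any transcript start, none of the 4 genes had a thresholded summit, beside 13.7% of protein-coding genes that did. The thresholded summit of elt-3, 1196 bp upstream of the 5′ end of K02B9.4a.1, lay just outside this span, so the count depends on its limit. All 4 genes had a pooled summit within the span, beside 42% of protein-coding genes. There were 3 at elt-1, 2 at elt-3, 2 at elt-6 and 3 at egl-18. In replicate 2, elt-6 and egl-18 had none in that span, while in replicate 1 they had 2 and 4.

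Most core sites carried no entry, both in these windows and over the nuclear genome. The windows held 82 distinct TGATAA, of which 8 lay under a thresholded peak, 23 under a pooled peak and 59 under none. Over the nuclear genome, with 105444 TGATAA, 4.93% lay under a thresholded peak and 17.1% under a pooled one. Site density was 1.71 per kb in the elt-3 window, and 1.24, 1.24 and 1.21 per kb at elt-1, elt-6 and egl-18, beside 1.05 per kb genome-wide. The windows were chosen around genes, which the genome-wide values were not.

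The number of pooled summits is to be read beside the length of the window. The median protein-coding gene had a window of 12026 bp and 3 pooled summits. With 3 summits each, elt-1 and elt-3 had windows longer than 85.2% and 88.9% of genes. The egl-18 window had more pooled summits than 98.9% of genes and was longer than 98.1% of them. Per kb, the values were 0.196 at elt-1, 0.184 at elt-3, 0.512 at elt-6 and 0.627 at egl-18, beside a median of 0.251. The strongest pooled signal was compared among the 15673 genes with a pooled summit, whose median was 69.2. Of these genes, 80.5% lay below elt-3, 66.1% below egl-18, 38.0% below elt-1 and 33.6% below elt-6, so the last pair were in the lower part. The other 4312 genes (21.6%) had no pooled summit.

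**Figure D4:**
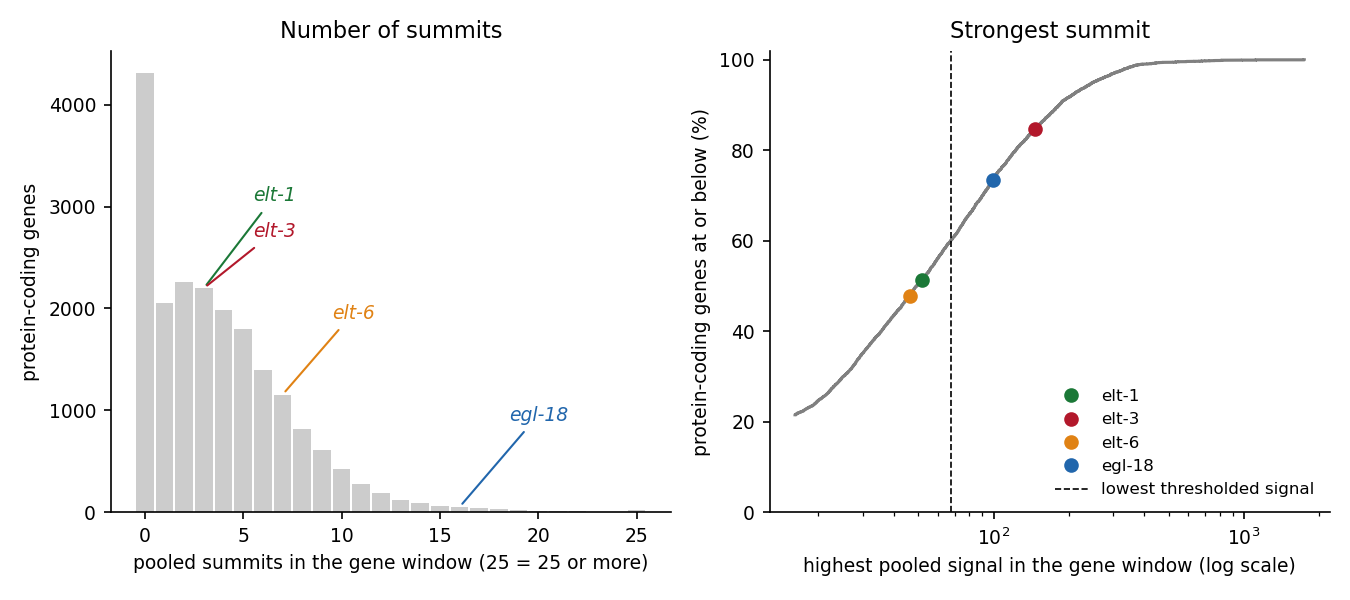
Left, number of protein-coding genes (vertical axis) by pooled summits in the window (horizontal axis). Right, percent of all protein-coding genes at or below a given strongest pooled signal (log axis, no unit given), with the lowest thresholded signal dashed and the 21.6% of genes without a pooled summit counted as below, so the curve starts there. The genes elt-1 and elt-3 (3 summits each) sit at the median count and egl-18 (16) in the right tail, while elt-3 has the strongest signal of the 4.

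Other genes of the family and of the epidermis were counted by the same rule. Among 7 GATA genes of the endoderm, 3 had a thresholded summit. That of end-1, an endoderm-specifying factor, had a signal of 235.8 at rank 422, 1914 bp past its 5′ end in the 3′ UTR. That of elt-7, which acts with ELT-2 in the intestine, had 111.3 at rank 1950, 49 bp upstream, and that of med-1, which acts at the top of this series, had 86.5 at rank 2901, 9961 bp upstream. The signal at elt-3 thus lay between those at end-1 and elt-7, and that at egl-18 between elt-7 and med-1. No pooled entry lay in the windows of elt-2 or elt-4, which are counted among the 7. The lists do not tell whether those windows held no signal or were left out before peaks were called.

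Among 20 regulators of epidermal and seam cells, 6 had a thresholded summit and 16 a pooled one, beside 78.4% of all protein-coding genes with a pooled summit. The strongest was in an intron of egl-27, with a signal of 294.7 at rank 239, one of 5 thresholded summits in its window. Next were rnt-1, the worm RUNX factor of the seam, with 137.1 at 7344 bp upstream, and the nuclear receptor gene nhr-25, with 128.4 at 463 bp upstream. At nhr-25 and egl-27, 2 of the 20 regulators, a thresholded summit lay near a 5′ end, beside 13.7% of all protein-coding genes. None of elt-1, elt-3, elt-6 and egl-18 had one there, but these are too few genes to set apart from that share. Among 11 structural genes of the epidermis and cuticle, 6 had a thresholded summit, and none of these lay near a 5′ end. The strongest were at the collagen genes dpy-3 (213.5) and sqt-3 (196.8), 9947 and 8997 bp upstream, and in an intron of noah-2 (186.3), a gene for an apical matrix protein. Those of dpy-3 and sqt-3 lay near the 10 kb limit of the window, so the count of 6 depends on that reach. The shares with a thresholded summit, 3 of 7, 6 of 20 and 6 of 11, are to be read beside the 39.9% of all protein-coding genes, and no list was tested.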

How the data were processed

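Peak lists of 2 replicates, their pool and a thresholded list were used in the build ce11. Not given in the sources used here are the aligner, the peak caller, the reproducibility threshold and the signal's scale. The authors deposited for each peak a summit position, a signal and a −log10 q-value. Per the deposited file listing, the replicate and pooled lists hold peaks and background, made as input for the irreproducible discovery rate procedure. The antibody is named as anti-GFP in one label and by its target, ELT-2, in another. Depth is unknown.

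Positions are 1-based and were read against WBcel235 with Ensembl release 115, using Python 3.11.15, numpy 2.4.6 and pandas 2.3.3. All 85854 peaks lay within the chromosome lengths. Entries were ranked by signal within each list. Entries matched when they overlapped by at least 1 bp, and the entry with the nearest summit was taken only where several of one list overlapped. The window, the threshold, the site and the rule for a match were varied in turn. Scripts were tested on simulated data. The 4 genes and the lists were chosen with earlier results of these data known. Values are given for all 4 genes, for each endoderm GATA gene with a thresholded summit and for the 3 strongest of each epidermal list. The lists in ce10 were not used here.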

Additional observations from a re-analysis of the deposited data

How the results depend on the processing

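Of 51 values recomputed under another setting, 40 stayed within 1.5 times the value and 11 moved. With only the 2049 strongest entries of the thresholded list, 1 gene and 1 summit remained, those of elt-3, and the share of all protein-coding genes fell to 23.7%. That share was 19.98% with 2 kb upstream and 19.9% with windows ended at the next protein-coding gene, while elt-3 and egl-18 had their summits in both. With 20 kb upstream, elt-6 gained the summit of egl-18, so that 3 genes had 1. From 1 replicate alone the elt-3 signal was 60.0 or 86.2, and the egl-18 signal 43.5 or 48.8. Among the 4098 strongest entries of replicate 2 alone, elt-1 also had a summit, for 3 genes and 3 summits, and of replicate 1 alone there were 2 and 2. The count of pooled summits matched in both replicates went from 17 to 7 with summits within 100 bp and to 11 with a reciprocal overlap of 50%, rules added for them after the data were seen; both thresholded summits stayed matched under each. Sites were found at both thresholded summits within 25 bp, within 100 bp, and as GATAA or TGATAAG. The annotation marks no canonical transcript, so the one with the longest coding sequence stood in for it. No paired analysis was possible because the samples form 1 group.

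Limits are the 2 replicates, the unknown depth, the absence of a control library here, the unknown scale of the signal, and entries below the threshold that the deposited listing counts in part as background. A window assigns a summit to a gene by position only, and 1 summit can count for several genes. The lists do not show whether any of these genes was expressed or regulated in the embryos.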
